A study of Mus musculus with 6 samples.

Results

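The expression of 10 genes of axon guidance signalling was followed through 6 clones of mouse embryonic fibroblasts with or without the adaptor protein FHL2. They were chosen by symbol: 4 secreted class 3 semaphorins (Sema3a, Sema3c, Sema3d and Sema3e), the neuropilin receptors Nrp1 and Nrp2, the ligands Slit2 and Slit3 with the receptor Robo1, and netrin-1 (Ntn1). All 10 were measured among the 18193 genes of the array, by 28 probe sets annotated to one of these symbols alone. For each gene the probe set whose mean was highest stands for the gene, and the others serve as a check.

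The FHL2-/- clones E, H and J are written KO-E, KO-H and KO-J, and the wild type clones E, F and I are written WT-E, WT-F and WT-I. Each genotype thus had 3 clones, with 1 array per clone. The clones came from mouse embryos and had become immortal in culture spontaneously; the letter E in both genotypes does not mark a shared clone. The labels do not give the passage, the strain or whether clones came from separate embryos, and the p-values therefore measure the spread among these clones alone. Values are log2 intensities made with RMA, and differences are knockout minus wild type with the standard error (SE) of a limma fit over all 18193 genes. A gene is said to rise or fall where the adjusted p lay under 0.05.

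Fhl2 read 6.01, 6.44 and 6.57 in KO-E, KO-H and KO-J, against 9.88, 8.57 and 9.64 in WT-E, WT-F and WT-I. It was lower in every knockout clone and fell by 3.02 (SE 0.35, limma adjusted p = 0.0040). An exact two-sided permutation test gave p = 0.10, the smallest value that 20 assignments allow. Signal remained, as the 1 probe set of Fhl2 read above the median gene level of 5.92 in every knockout clone. That probe set is of a type treated here as open to cross-hybridization, and the source of the remaining signal was not tested. Among the knockout means of all genes that of Fhl2 lay at percentile 54.4. All 10 fibroblast markers, such as Col1a1 and Vim, had means over the 6 clones at or above that median gene level. Lum, at 5.75 in WT-E and 4.63 in WT-I, lay below it in those clones. KO-H stood apart: across genes it correlated at 0.964 and 0.968 with KO-E and KO-J, against 0.991 between those 2, and it alone read Xist high (9.82, against 4.69 to 5.11 in the other clones) and the Y-linked Eif2s3y low (2.92, against 7.46 to 8.79). Kdm5d, also Y-linked, read 2.34 in KO-H and 6.50 to 7.72 in the other clones. By these readings KO-H was female and the other clones male, so the knockout group mixed sexes. KO-H thus came from another embryo than KO-E and KO-J. The part of sex in the differences was not tested. The column of WT-E carries 9 decimals and the others 3. Array medians were 4.52 to 4.54 in knockout clones and 4.44 to 4.46 in wild type clones.

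As background, class 3 semaphorins are secreted proteins that mostly bind a neuropilin, which holds no signalling domain of its own and hands the signal to a plexin; Sema3e differs in that it can bind plexin D1 without a neuropilin. Slits are large secreted proteins that signal through Robo receptors, and netrin-1 acts through receptors such as neogenin and the UNC5 family. Though named for growing axons, these ligands are made by many mesenchymal cells, where they steer blood vessels, nerves and migrating cells around the tissue.

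In knockout clones 3 of the 10 genes rose (Sema3c, Slit2 and Ntn1), 1 fell (Sema3e) and 6 did not pass. Over all genes tested, 9.04% rose and 10.0% fell, 19.0% in either direction. The median difference of the 10 genes was 0.77, against 0.04 over all genes, and the median size of the difference was 1.19, against 0.23. Dim genes are included in the values over all genes, while 9 of the 10 lay at or above the median gene level of 5.92. In a fit of the 9097 genes at or above that level, 3142 passed, a larger share than over all genes. Of the 9 members tested there, 3 rose and 0 fell, so the share that passed lay near that of all genes in that fit. Sema3e was not tested in it. Knockout and wild type values were free of overlap in 6 of the 10 genes, 3 higher and 3 lower, where 38.9% of all genes showed no overlap, 20.7% higher and 18.2% lower. Members were chosen with earlier results of these arrays known, so these counts describe them and say nothing of guidance genes in general. In RNA from a whole clone, fewer cells with a transcript and less of it per cell cannot be told apart.

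**Figure D1:**
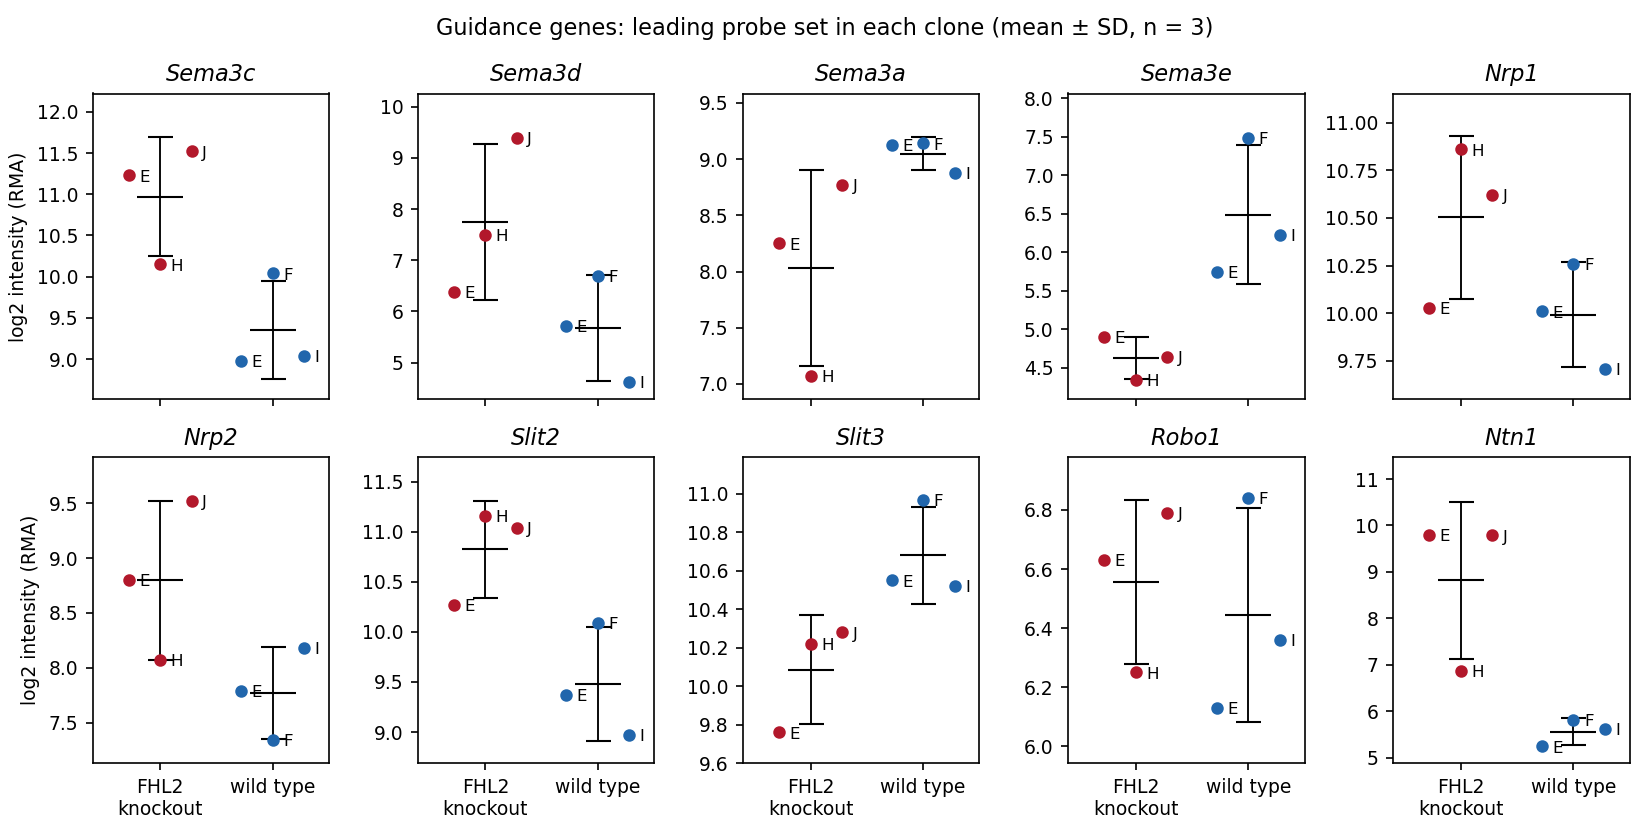
Log2 intensity of the leading probe set of each of the 10 genes (vertical axis, scaled per panel) in knockout clones (left, red) and wild type clones (right, blue). Points are single clones with their letter, and bars are the mean ± SD of 3 clones. Sema3c, Slit2 and Ntn1 lie higher in every knockout clone than in any wild type clone, and Sema3a, Sema3e and Slit3 lie lower.

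Sema3c, a semaphorin known from the outflow tract of the heart and from vessel growth, was the one of the 4 semaphorins that rose. Its leading probe set (1429348_at) read 11.23, 10.15 and 11.52 in KO-E, KO-H and KO-J, against 8.98, 10.04 and 9.04 in WT-E, WT-F and WT-I. The groups did not overlap, but KO-H lay next to WT-F. Group means were 10.96 ± 0.724 in knockout clones and 9.35 ± 0.592 in wild type clones (SD, n = 3 each), a rise of 1.61 (SE 0.43, limma adjusted p = 0.0470), or 3.06-fold. The second probe set gave the same picture, at 10.14, 8.89 and 10.36 in knockout clones against 7.61, 8.64 and 7.80 in wild type clones (difference 1.78, SE 0.44). The call stood close to the threshold: it was lost after median centring of the arrays (1.57, adjusted p = 0.0506), with a trended prior (0.0562), with every probe set tested (0.0529), and without KO-E (0.129), KO-J (0.139), WT-E (0.153) or WT-I (0.136).

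Sema3e, the ligand of plexin D1 in the patterning of vessels, fell. It read 4.90, 4.35 and 4.64 in KO-E, KO-H and KO-J, against 5.75, 7.49 and 6.23 in WT-E, WT-F and WT-I (1427673_a_at). No knockout clone reached the lowest wild type clone, and WT-F was the highest of all. The means were 4.63 ± 0.276 in knockout clones and 6.49 ± 0.895 in wild type clones (SD, n = 3 each), so Sema3e fell by 1.86 (SE 0.43, limma adjusted p = 0.0310), or 3.63-fold. All 3 other probe sets were lower in every knockout clone as well, by 1.54 to 2.79 in the log2 value. In a limma fit over all probe sets, the one that differed by 1.54 did not pass (adjusted p = 0.101). The others did (adjusted p = 0.0133 and 0.0323). Among the knockout means of all genes that of Sema3e lay at percentile 37.4, and 2 of the other probe sets read between 3.13 and 3.88 in all knockout clones, near the lower end of the scale, where the size of a fall is not exact. The call was lost without KO-E (adjusted p = 0.0658), KO-J (0.0923) or WT-I (0.0699).

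Sema3a, the collapsin that repels axons through Nrp1, lay lower in knockout clones, but whether it passed depended on the probe set. The leading probe set (1420416_at) read 8.25, 7.07 and 8.77 in KO-E, KO-H and KO-J, against 9.13, 9.14 and 8.88 in WT-E, WT-F and WT-I. The groups did not overlap, though KO-J came within a small step of WT-I. The difference of -1.02 (SE 0.41, 95% interval -2.01 to -0.03) did not pass (limma adjusted p = 0.140). In a fit of all 45037 probe sets, of which 13.9% passed, the probe sets that follow it in level fell by 1.60 (SE 0.32, adjusted p = 0.0219) and, in the dimmest, by 1.68 (SE 0.38, with 0.0327 as adjusted p). The mean of all 3 probe sets fell by 1.43 (adjusted p = 0.0426). The leading probe set came to -0.54 without KO-H and to -0.55 with the median of the 40 nearest genes subtracted (-0.94 where each of those genes was first centred on its own mean). It passed in 0 of the 15 settings other than the mean of probe sets.

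Sema3d, another secreted semaphorin that binds Nrp1, spread more widely between clones than any other of the 4 semaphorins. It read 6.38, 7.49 and 9.39 in KO-E, KO-H and KO-J, against 5.72, 6.70 and 4.62 in WT-E, WT-F and WT-I (1429459_at). KO-E lay below WT-F, so the groups overlapped, and KO-J alone was far above the rest. The difference was 2.07 (SE 0.84, 95% interval 0.05 to 4.10) and did not pass (limma adjusted p = 0.142). Without KO-J it was 1.25. The second probe set overlapped in the same way (difference 1.54, SE 0.55).

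The 250 bases before the start of transcription are shown for the 3 genes that changed and have an entry in the RefSeq promoter table, to set the opposite pair Sema3c and Sema3e beside Slit2. Capitals mark matches, on either strand, to GGGCGG (the GC box bound by Sp1) and TATAAA (the TATA box); TGANTCA (the AP-1 site) and CCAAT were also searched.
Sema3c, GRCm38.p6 chr5:17574566-17574815, + strand: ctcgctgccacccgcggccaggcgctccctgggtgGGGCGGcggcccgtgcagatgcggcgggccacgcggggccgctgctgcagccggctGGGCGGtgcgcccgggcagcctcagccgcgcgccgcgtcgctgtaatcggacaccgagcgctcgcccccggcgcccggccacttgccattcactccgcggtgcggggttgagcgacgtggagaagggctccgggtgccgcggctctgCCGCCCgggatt
Sema3e, GRCm38.p6 chr5:14025026-14025275, + strand: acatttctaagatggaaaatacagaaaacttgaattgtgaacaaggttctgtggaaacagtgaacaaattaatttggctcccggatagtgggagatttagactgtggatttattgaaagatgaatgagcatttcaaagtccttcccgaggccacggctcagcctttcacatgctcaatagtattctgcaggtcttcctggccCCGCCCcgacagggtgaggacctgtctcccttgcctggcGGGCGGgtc
Slit2, GRCm38.p6 chr5:47982905-47983154, + strand: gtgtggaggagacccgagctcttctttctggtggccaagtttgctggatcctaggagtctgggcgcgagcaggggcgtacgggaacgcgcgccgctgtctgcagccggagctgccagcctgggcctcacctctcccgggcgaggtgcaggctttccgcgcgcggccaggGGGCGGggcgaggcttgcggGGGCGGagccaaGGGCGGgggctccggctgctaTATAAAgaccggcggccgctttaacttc
The Sema3c window held 39 CG dinucleotides, more than 98.4% of the 32851 windows of this length, that of Slit2 held 25, and that of Sema3e 7, where the median window held 6. GGGCGG was found 3 times in Sema3c, 2 times in Sema3e and 3 times in Slit2, and in 32.7% of all windows. TATAAA was found in Slit2 alone of the 9 members with an entry, 28 bases before the start, and in 12.4% of all windows. TGANTCA was in 0 of the 9 windows and in 6.75% of all. CCAAT was in none of the 3 windows shown, in 1 of the 9 and in 33.8% of all. GGGCGG was in 6 of the 9. The 32851 windows were not limited to genes measured on the array, so the shares over all windows are no matched background for the members. These matches describe the letters of the windows and no binding.

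Slit2 also lies on chromosome 5, Slit3 and Ntn1 on 11, Nrp2 on 1, Nrp1 on 8 and Robo1 on 16. The 4 semaphorin genes share a stretch of chromosome 5, where the RefSeq table places 12 measured genes in the order Sema3d, Sema3a, Speer3, Sema3e, Pclo, Speer8-ps1, Speer4cos, 4930519H02Rik, Cacna2d1, Hgf, Speer4f1 and Sema3c. The pair at the ends lay above 0 (2.07 at Sema3d and 1.61 at Sema3c), and the pair inside lay below (-1.02 at Sema3a and -1.86 at Sema3e). Of the 8 genes between them, only Speer3, of a multigene family whose copies may share signal, passed (-0.66, SE 0.18, adjusted p = 0.0483). Hgf, the hepatocyte growth factor, differed by 1.15 (SE 0.59, adjusted p = 0.234) and the calcium channel subunit Cacna2d1 by -0.64 (SE 0.30, adjusted p = 0.192). The other 5 differed by 0.03 to 0.16. Of these, Pclo, Speer8-ps1, Speer4cos and 4930519H02Rik read 2.82 to 3.54 in all clones. That is near the lower end of the scale, where a difference could hardly show. The median difference of the 40 nearest measured genes was -0.10 around Sema3d, -0.03 around Sema3a, 0.03 around Sema3e and 0.02 around Sema3c.

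**Figure D2:**
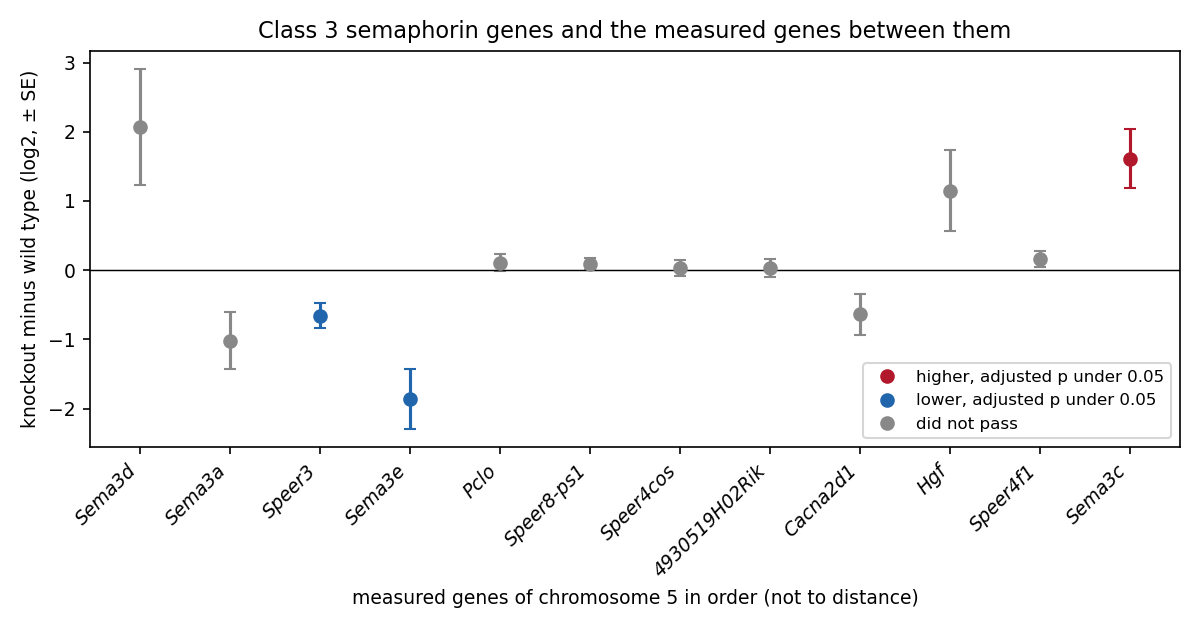
Difference of knockout minus wild type clones (vertical axis, log2, points with SE) for the 12 measured genes from Sema3d to Sema3c in their order on chromosome 5 (horizontal axis, not to distance). Red and blue mark genes that rose or fell, and grey those that did not pass. Sema3c (1.61) and Sema3d (2.07) stand above 0 at the ends of the stretch, with Sema3a (-1.02) and Sema3e (-1.86) below. Pclo, Speer8-ps1, Speer4cos and 4930519H02Rik read near the lower end of the scale in all clones.

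The neuropilins lay higher in knockout clones by their leading probe sets, and neither passed. Nrp2, which binds Sema3c among others, read 8.80, 8.07 and 9.52 in KO-E, KO-H and KO-J, against 7.79, 7.34 and 8.18 in WT-E, WT-F and WT-I (1435349_at). Only the low KO-H and the high WT-I crossed. The difference was 1.03 (SE 0.39, limma adjusted p = 0.122), and it passed without KO-H (1.39, adjusted p = 0.0179) and with array weights (1.29, adjusted p = 0.0320), which gave KO-H a weight of 0.385. Those were the 2 passes in 16 alternative settings. Without KO-J the difference was 0.67 (adjusted p = 0.271). In 2 further probe sets of Nrp2 the groups did not overlap (differences 1.03 and 1.17, adjusted p = 0.0596 and 0.0615 over all probe sets). The other probe set read 2.95 to 3.29 in all clones, at the lower end of the scale.

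Nrp1, the receptor that Sema3a and Sema3d share, read 10.03, 10.86 and 10.62 in KO-E, KO-H and KO-J, against 10.01, 10.26 and 9.71 in WT-E, WT-F and WT-I (1448943_at). KO-E sat within the wild type range. The difference was 0.51 (SE 0.24, 95% interval -0.08 to 1.09, limma adjusted p = 0.208). A pair of further probe sets differed by 0.52 and 0.44 with overlap, and the last, read at 5.09 to 5.66, by -0.18.

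Slit2 rose. The gene read 10.27, 11.16 and 11.04 in KO-E, KO-H and KO-J, against 9.37, 10.09 and 8.97 in WT-E, WT-F and WT-I (1424659_at). Every knockout clone was above every wild type clone, with KO-E and WT-F close together. Means were 10.82 ± 0.478 in knockout clones and 9.48 ± 0.568 in wild type clones (SD, n = 3 each), a rise of 1.35 (SE 0.35, limma adjusted p = 0.0420), or 2.54-fold. The other 2 probe sets rose by more, 2.17 (SE 0.39, adjusted p = 0.0158) and 2.36 (SE 0.53, adjusted p = 0.0317 over all probe sets), also without overlap. The call of the leading probe set was lost without KO-H (adjusted p = 0.0594), KO-J (0.131), WT-E (0.134) or WT-I (0.111). The nearest measured genes on both sides moved the other way: Lcorl fell by 0.97 (SE 0.15, adjusted p = 0.0083) and Pacrgl by 0.64 (SE 0.11, adjusted p = 0.0114).

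Slit3, the paralog of Slit2, lay lower and not higher. It read 9.76, 10.22 and 10.28 in KO-E, KO-H and KO-J, against 10.55, 10.97 and 10.52 in WT-E, WT-F and WT-I (1452296_at, its 1 probe set). The groups did not overlap, and the gap between KO-J and WT-I was narrow. The difference of -0.59 (SE 0.19, 95% interval -1.06 to -0.13) did not pass (limma adjusted p = 0.0816), and stayed between -0.69 and -0.43 over the 16 alternative settings, with a pass in 0. The nearest measured genes on both sides of Slit3 lay lower as well. Spdl1 fell by 1.68 (SE 0.25, limma adjusted p = 0.0075), and Pank3 differed by -0.37 (SE 0.14, adjusted p = 0.113).

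Robo1, the receptor of both Slits, read 6.63, 6.25 and 6.79 in KO-E, KO-H and KO-J, against 6.13, 6.84 and 6.36 in WT-E, WT-F and WT-I (1427231_at). The clones of the genotypes were mixed. The difference was 0.11 (SE 0.22, limma adjusted p = 0.780), and its 95% interval of -0.43 to 0.65 leaves room for a modest change in either direction. It turned to -0.14 after the median of the 40 nearest genes was subtracted (0.12 with each of those genes first centred), to -0.01 without KO-J and to -0.05 without WT-E. The other probe sets, read at 2.53 to 3.24, differed by 0.12 and 0.08.

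Ntn1, the secreted netrin-1, had the largest difference of the 10 genes. It read 9.80, 6.87 and 9.79 in KO-E, KO-H and KO-J, against 5.25, 5.82 and 5.62 in WT-E, WT-F and WT-I (1454974_at). KO-E and KO-J were almost equal, and KO-H lay 2.93 below their mean, nearer to the wild type clones. Means were 8.82 ± 1.69 in knockout clones and 5.56 ± 0.286 in wild type clones (SD, n = 3 each), a rise of 3.26 (SE 0.78, limma adjusted p = 0.0336), or 9.57-fold. The second probe set also read higher in every knockout clone, at 7.15, 5.01 and 6.54 in knockout clones against 3.94, 4.33 and 4.48 in wild type clones, and rose by 1.99 (SE 0.51, adjusted p = 0.0495 over all probe sets). Without KO-H the leading probe set rose by 4.23, and the call was lost without any other clone (adjusted p from 0.0867 to 0.118). Of the nearest measured genes, Pik3r5 fell by 0.67 (SE 0.16, limma adjusted p = 0.0354), and Stx8 differed by 0.17 (SE 0.13, adjusted p = 0.415). No nearest measured gene of Nrp1, Nrp2 or Robo1 passed.

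**Figure D3:**
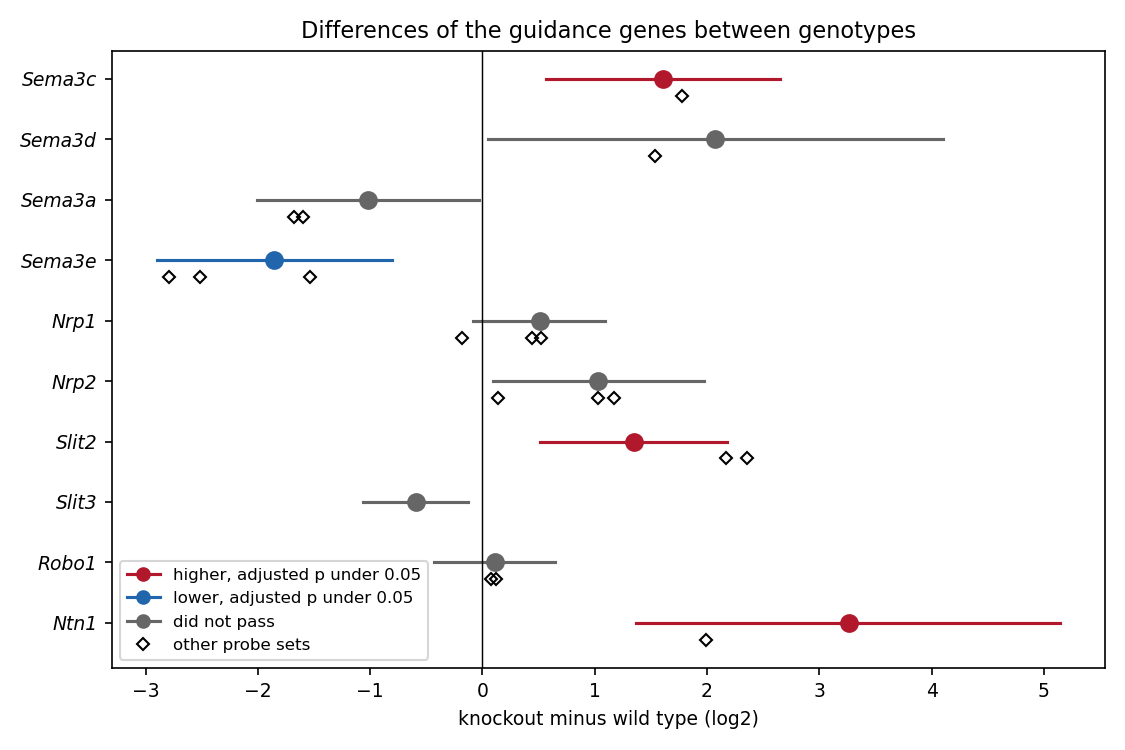
Difference of knockout minus wild type clones (horizontal axis, log2) for the 10 genes. Filled points and lines are the leading probe set with its 95% interval, red where the gene rose, blue where it fell and grey where it did not pass, and open diamonds are the other probe sets. Ntn1 stands farthest to the right at 3.26 and Sema3e farthest to the left at -1.86, and the other probe sets of Sema3a, Sema3e and Slit2 reach -1.68, -2.79 and 2.36.

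Within a genotype, the same clones recurred at the edges. KO-H was the farthest from its group in 6 of the 10 genes and the lowest in 6 of them (Sema3a, Sema3c, Sema3e, Nrp2, Robo1 and Ntn1), while it was the highest in Nrp1 and Slit2. WT-F was the highest wild type clone in 9 of the 10, the exception being Nrp2, where it was the lowest. The same shares over all genes were not counted, so whether this is particular to the 10 genes cannot be told. Without KO-H, 3 members rose (Sema3c, Nrp2 and Ntn1) and 1 fell; without WT-E, 0 rose and 1 fell. Over all genes, the number of calls was 4750 without KO-H and 1661 without WT-E, against 3464 with all clones.

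By pattern over the 6 clones, measured as the Euclidean distance between mean-centred log2 values, the genes most like Ntn1 were Tril (0.662), Sncaip (0.839) and Fam122b (0.873). Tril, a protein that interacts with Toll-like receptors, read 9.11, 5.76 and 8.37 in KO-E, KO-H and KO-J, against 4.56, 4.56 and 4.66 in wild type clones, and so shared the low KO-H. Closest to Sema3e were Qpct, a glutaminyl cyclase (0.730), Gla, the lysosomal alpha-galactosidase (0.788), and Rgs2, a regulator of G protein signalling (0.810). They fell by 1.76, 1.76 and 1.95, each with WT-F the highest.

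The rest of the guidance machinery was read from a list of 64 genes, all measured: 8 rose, 5 fell and 51 did not pass (median difference 0.13). With 9.04% of all genes rising and 10.0% falling, these counts lie near the background. None of the 9 plexins, a family that includes the signalling partners of the neuropilins, passed, and their median difference was 0.15. Plxnb2, a receptor of class 4 semaphorins, came nearest, at 10.45, 10.38 and 10.49 in knockout clones against 10.05, 10.28 and 10.10 in wild type clones (0.30, SE 0.10, adjusted p = 0.0995). Plxna4 differed by 0.21, Plxna1 by 0.15 and Plxna2 by 0.38. Plxnd1, the plexin of Sema3e, singled out here for that role after its values were seen, read 8.13, 6.13 and 7.41 in knockout clones against 6.66, 7.12 and 7.11 in wild type clones (0.27, SE 0.48).

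Of the 16 other semaphorins, 3 rose and 0 fell. Sema4g rose by 1.28 (SE 0.29, adjusted p = 0.0263) and the transmembrane Sema6c by 0.49 (SE 0.11, adjusted p = 0.0270). Sema4d, a ligand of plexin B1, rose by 0.75 (SE 0.20, adjusted p = 0.0484). These calls were fragile: Sema4d passed in 5 of 15 alternative settings, Sema4g in 10 of 15 and Sema6c in 8 of 16, and Sema6c turned to -0.05 without probe sets open to cross-hybridization. Sema6a did not pass (0.34, SE 0.12, adjusted p = 0.0893).

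Slit-Robo GTPase-activating proteins, which bind the tails of Robo receptors, did not move together. Srgap1 read 7.23, 6.39 and 6.87 in knockout clones against 5.15, 5.83 and 6.07 in wild type clones, a rise of 1.14 (SE 0.30, adjusted p = 0.0448) that passed in 8 of 16 alternative settings. Srgap3 read 6.96, 7.0 and 7.20 in knockout clones against 7.63, 8.08 and 7.90 in wild type clones, a fall of 0.82 (SE 0.14, adjusted p = 0.0131). That call was lost after the median of the 40 nearest genes was subtracted (-0.25, adjusted p = 0.576) and stood where each of those genes was first centred (-0.79, adjusted p = 0.0173). Srgap2 differed by 0.70 (SE 0.31, adjusted p = 0.174), and Robo2, read at 2.29 to 2.61, by 0.15.

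Of 11 other netrins and netrin receptors, 1 rose: Ntn3, by 0.76 (SE 0.19, adjusted p = 0.0375), in 9 of 15 alternative settings. Ntn3 read 4.19 to 4.84 in knockout clones and 3.58 to 3.78 in wild type clones, all below the median gene level of 5.92. With the median of the 40 nearest genes subtracted it was 0.21 (adjusted p = 0.484), and with each of those genes first centred 0.80 (adjusted p = 0.0356). The dependence receptor Unc5b read 6.77, 9.42 and 7.01 in KO-E, KO-H and KO-J, against 9.19, 9.12 and 9.10 in wild type clones, so KO-H, low in Ntn1, was above the wild type clones here. Its difference was -1.40 (SE 0.67, adjusted p = 0.205). Ntn4, a netrin of basement membranes, read 5.76, 4.50 and 6.60 in knockout clones against 7.59, 6.52 and 7.65 in wild type clones (-1.64, SE 0.57, adjusted p = 0.0969). Ntng1 differed by 0.33 (SE 0.16).

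Among 16 intracellular effectors of semaphorin signalling, 4 fell and 1 rose. Dpysl3, a collapsin response mediator protein that binds cytoskeletal proteins, read 8.61, 9.31 and 8.58 in knockout clones against 11.27, 11.48 and 11.40 in wild type clones. The genotypes were more than a log2 unit apart in every clone, and Dpysl3 fell by 2.55 (SE 0.21, adjusted p = 0.0017). Mical3, of the MICAL family of flavin monooxygenases that act on actin, fell by 1.10 (SE 0.14, adjusted p = 0.0053) and the kinase Fyn by 1.17 (SE 0.17, adjusted p = 0.0069). Farp2, an exchange factor that acts with A-type plexins, rose by 0.83 (SE 0.11, adjusted p = 0.0054). Dpysl3, Mical3 and Fyn passed in all 16 alternative settings and Farp2 in 14 of 15 (it lay under 2-fold).

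Of 5 repulsive guidance molecules and FLRT proteins, 2 rose. Flrt2, a membrane protein that binds UNC5 receptors and fibroblast growth factor receptors, read 10.68, 9.43 and 10.32 in knockout clones against 7.01, 7.72 and 7.17 in wild type clones. It rose by 2.84 (SE 0.35, adjusted p = 0.0045) and passed in all 16 alternative settings. Flrt1 rose by 1.26 (SE 0.31, adjusted p = 0.0352), in 10 of 15 settings, while Flrt3 (-0.70, SE 0.35) and Rgma (0.59, SE 0.43) did not pass.

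**Figure D4:**
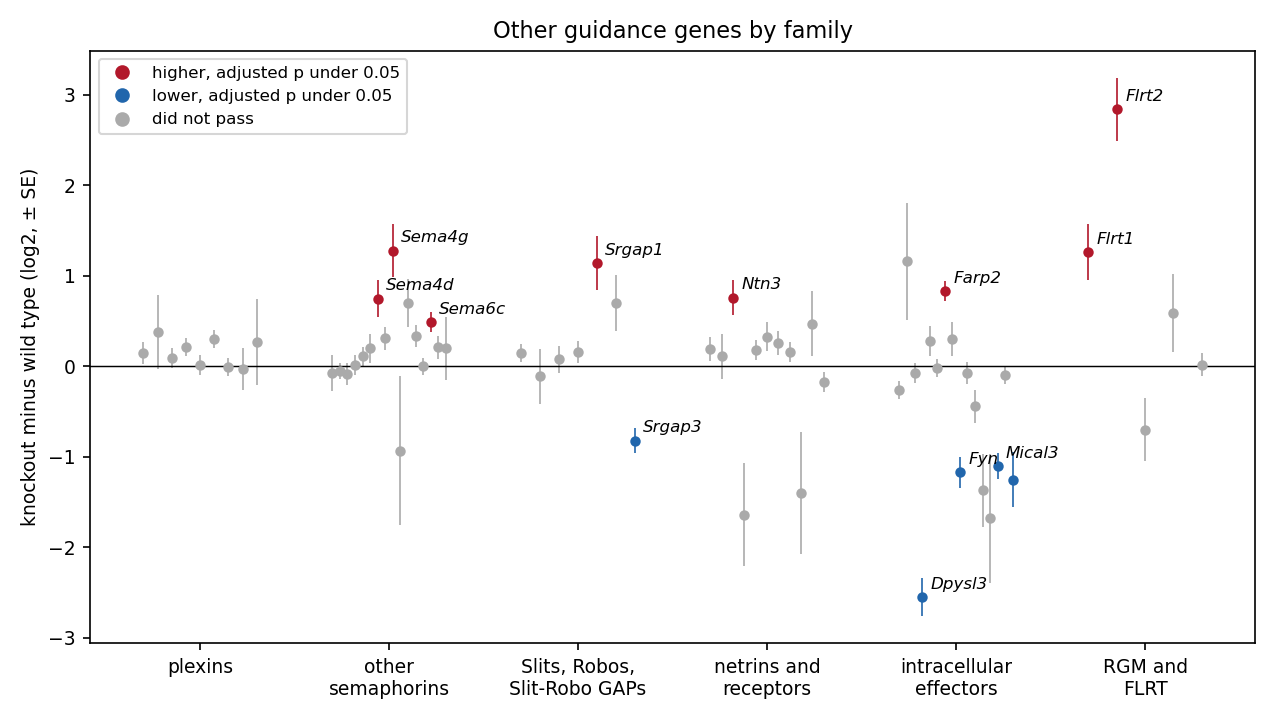
Difference of knockout minus wild type clones (vertical axis, log2, points with SE) for 64 other guidance genes, grouped by family along the horizontal axis. Red and blue mark genes that rose or fell, with the up to 4 of smallest p per family labelled, and grey those that did not pass. Flrt2 (2.84) and Dpysl3 (-2.55) lie farthest from 0, and no plexin passed.

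Markers of other cell types were read beside these genes. The summed linear intensity of 7 endothelial markers was 203.3 to 567.5 in knockout clones and 93.9 to 161.2 in wild type clones. Of these, only Tek, the angiopoietin receptor, rose (8.36, 4.68 and 8.91 in KO-E, KO-H and KO-J, against 3.27, 3.31 and 2.54 in wild type clones). Kdr, a receptor of vascular endothelial growth factor, read 4.85, 6.99 and 4.81 in knockout clones against 5.49, 6.70 and 5.38 in wild type clones, with overlap. The other 5, among them Pecam1 and Cdh5, which define the endothelium, read 2.63 to 4.16 in all clones. The 7 neural and glial markers summed to 274.3 to 381.9 in knockout clones and 498.9 to 829.4 in wild type clones, and Tubb3 and Nes fell. Map2 differed by 0.53 (SE 0.49), highest in KO-J at 7.34, and the other 4, Stmn2, Gfap, Sox10 and Syp, read 3.56 to 5.49. The 7 epithelial markers summed to 310.9 to 335.5 in knockout clones and 383.3 to 534.8 in wild type clones. Of them the keratin Krt19 fell by 3.05 (4.44, 4.31 and 4.61 in knockout clones, against 8.26, 7.25 and 7.0 in wild type clones, adjusted p = 0.0031), the adhesion protein Epcam rose by 0.43 (adjusted p = 0.0327), and 5 did not pass. None of 6 macrophage and blood or 5 skeletal muscle markers passed in the limma fit. Fibroblast markers summed to 64410 to 68540 in knockout clones and 48730 to 57840 in wild type clones. In them Pdgfra, Dcn and Lum rose, and Thy1 and Pdgfrb fell. The part of these shifts in the guidance genes was not tested.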

How the data were processed

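Biotin-labelled RNA of 6 clones was read on 1-colour Affymetrix arrays, per the labels. The authors deposited log2 intensities made with RMA, per the submitters' processing notes; its version and settings are not given in the sources here. Groups were taken from sample titles. Of 45101 probe sets, 64 controls were left out, 34945 carried 1 gene symbol (932 several, 9160 none) of which 34741 matched the RefSeq table (GRCm38.p6) by gene ID; the table served for names and gene order. No filter on low values was used; the number of arrays limits the precision (median SE 0.141).

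A model with genotype alone was fitted over 18193 genes with limma 3.58.1 (lmFit, eBayes; R 4.3.3), with Benjamini-Hochberg adjustment and a threshold of 0.05. Members and lists were chosen with earlier results of these data known. Named were all members, up to 4 genes of smallest p per family, and the nearest patterns and neighbours; Plxnd1, Hgf, Cacna2d1, the sex-linked genes and the single cell type markers were named after their values were seen. One effector that fell is not reported here. Alternatives comprised 16 settings: prior, normalization, filter, probe set rule, array weights, a 2-fold threshold, neighbouring genes subtracted and each clone left out. One more, with neighbours mean-centred, was chosen after seeing the data and is not in the counts of settings. The fit was tested on simulated data. Promoter windows came from RefSeq (GRCm38.p6). Figures used matplotlib 3.10.9 in Python 3.11.15.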

Additional observations from a re-analysis of the deposited data

How the results depend on the processing

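Of 159 values of the 10 genes under the 16 alternatives, 134 kept their direction and their side of the threshold, 19 lost a call, 3 gained one and 3, all of Robo1, turned. Robo1 was -0.14 with the 40 nearest genes subtracted and -0.05 to 0.31 with 1 clone left out, below 0 without WT-E (-0.05) and without KO-J (-0.01). Sema6c turned to -0.05 when probe sets open to cross-hybridization were dropped. The number of members that rose was 0 to 3 with 1 clone left out, against 3 with all clones; it was 0 without KO-J, WT-E or WT-I. The number that fell was 0 to 1 with 1 clone left out, 0 over genes at or above the median level, where Sema3e was not tested, and 2 with probe sets averaged, where Sema3a joined. Of the 64 other guidance genes, 8 rose, or 3 over genes at or above the median level (36 of the 64 tested), 4 with the 2-fold threshold and 2 to 12 with 1 clone left out. The 5 that fell became 8 with array weights, 3 with the 40 nearest genes subtracted and 4 to 8 with 1 clone left out. The subtracted median mixes genes of unlike level. An alternative chosen after seeing the data first centred each neighbouring gene on its own mean: 3 members rose, 1 fell, Robo1 was 0.12, and of the other guidance genes 8 rose and 4 fell, with Srgap1 (adjusted p = 0.0531) and Flrt1 (0.0557) among those no longer passing. Fits without 1 clone have fewer samples, and other causes were not tested. Array weights raised the count over all genes to 4926. No paired analysis was possible because the genotypes share only 1 clone letter, which names separate clones. Readings near the lower end of the scale limit the size of the fall of Sema3e.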
